A study of Mus musculus with 6 samples.

Results

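The 46 genes described here are encoded in the nucleus and make up the core of mitochondrial carbon oxidation and ATP synthesis: 15 genes of the TCA cycle and the pyruvate dehydrogenase complex, 25 subunits of respiratory complexes I to V, cytochrome c, and 5 carriers and channels of the mitochondrial membranes. They were taken as the rows of the deposited count table that carry the Entrez identifiers of the listed symbols, and all 46 were found among the 23725 genes of the table. The RNA came from the mouse embryonic fibroblast line 3T3-L1 after 24 h of treatment. In the EV group, 3 plates each received a separate preparation of extracellular vesicles (EVs) from MLP29 cells, an epithelial line cloned from mouse embryonic liver. In the control group, 3 plates each received what the same isolation yielded from medium that no cells had conditioned. Both groups were kept in a HEPES-containing complete DMEM medium whose own vesicles had been removed by centrifugation, and no genotype differed between them. The vesicles were isolated by centrifugation, which can carry non-vesicular material along. The EV libraries are numbered 1, 2 and 4 and the control libraries 1, 2 and 3.

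In the mitochondrial matrix, pyruvate dehydrogenase turns pyruvate into acetyl-CoA, which the TCA cycle oxidizes while reducing NAD and FAD. Complexes I and II pass those electrons to ubiquinone, complex III passes them on to cytochrome c and complex IV to oxygen, and the proton gradient built on the way drives complex V, the ATP synthase. ADP, ATP and phosphate cross the inner membrane through carriers of the SLC25 family, and metabolites cross the outer membrane through VDAC channels. Proliferating fibroblasts use this pathway both for ATP and as a source of precursors for biosynthesis.

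The libraries held between 508599 and 665465 counts, and 8404 genes were at 0 in all 6. Normalized CPM are counts relative to the library's sum over the genes tested, after scaling with TMM factors. The quasi-likelihood test of edgeR was applied to the counts, with Benjamini-Hochberg adjustment over 5066 genes and a threshold of 0.05. Of these, 723 genes (14.3%) were lower in the EV libraries and 384 (7.58%) were higher, with 390 and 65 without control library 2 and 571 and 127 without control library 1. The strand setting of the counting is not given in the sources used here, and the kit was stranded, so that a value stands for the count listed under a gene and was not read as its mRNA level. Whether these reads come from a gene's own transcript or from the opposite strand was not tested, and "fell" and "rose" are said of the listed counts. All 12 fibroblast markers were tested, and 8 of them fell, with a summed level of 2855 ± 242 CPM (SD, n = 3) in the control group and 1445 ± 172 in the EV group. The part of this decrease in the values of the 46 genes was not tested. Of 10 liver progenitor and epithelial markers, 7 were at 0 in every library, among them Alb, Krt19 and Epcam, Cdh1 had at most 1 count and Sox9 had 9 to 13. Spp1 fell, from 17, 45 and 39 control counts to 7, 9 and 7 EV counts (log2 fold change -1.91, adjusted p = 2.29e-05). None of its EV libraries reached the low-count filter described below, so it was tested through its control counts alone. In the second fit described there, with genes kept by their mean count, its log2 fold change was -1.85 (adjusted p = 2.07e-05). Of the macrophage markers, 5 of 6 had at most 3 counts in any library. In such bulk libraries, fewer cells of a type and less RNA per cell cannot be told apart.

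The counts behind most of the 46 genes were low. Only Ogdh had more than 200 counts in each library, with 217 to 287, and the highest count of any other of these genes was 95. In 33 of the 46, no library had more than 20 counts. A filter on low counts that edgeR applies for the test kept 17 of the 46, and 29 were not tested by it. That filter uses CPM relative to all counts of a library, without TMM factors. It asks for 16.9 CPM in as many libraries as a group has, so that a gene high in the control libraries alone can enter. Ndufa4 and Mdh2 entered in that way, with no EV library at that level, and a gene that enters in this way had to be lower in the EV group. Cs, Suclg2, Cox5b and Vdac1 had 3 control libraries but 1 EV library at that level. A second fit, added after the values were seen, therefore kept genes by their mean count over all 6 libraries, at least 5, which does not look at the groups. It tested 7203 genes and 35 of the 46. One gene, Uqcrfs1, which encodes the Rieske iron-sulfur protein of complex III, had at most 3 counts in every library and was given no fold change.

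With the first filter, 3 of the 17 tested genes passed the threshold, Ndufa4, Mdh2 and Atp5b, all with lower counts in the EV libraries. None was higher. The share of 17.6% was near the 14.3% of all tested genes that were lower, so the number of calls did not stand out from the background. At an unadjusted p under 0.05, 7 were lower and 0 higher, with Ndufa4 and Mdh2 among the 7. The share of all genes at an unadjusted p was not taken. Counts at that p are therefore a description, here and below, and not a result about these genes. The Wald test of DESeq2 called none of the 17, with 5 that it gave no adjusted p, Ndufa4 and Mdh2 among them, and 3 with an unadjusted p under 0.05. With the second filter, 3 of 35 genes (8.57%) passed, against 9.62% of all genes tested in that fit, and these were Ndufa4, Mdh2 and Atp5c1. Of the 35, 28 had a lower level in the EV group, with a median log2 fold change of -0.44, where the median of all 7203 genes was -0.03 and 51.8% were lower. In 11 of the 35 (31.4%), every EV library lay below every control library, against 21.5% of all genes. Genes are not independent replicates, and no test was made of this median.

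**Figure D1:**
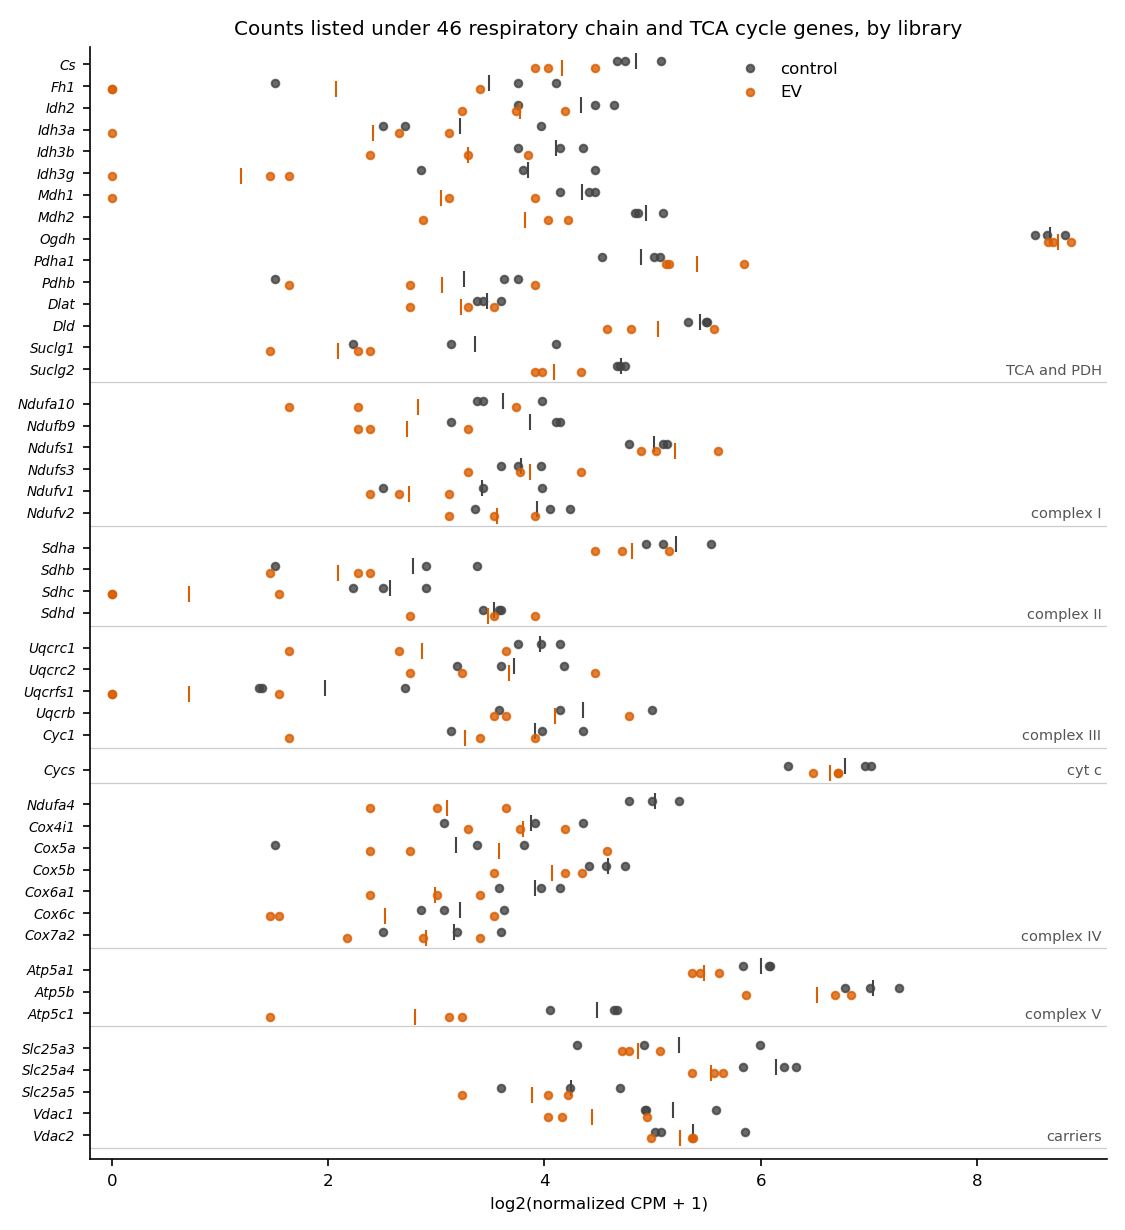
Normalized CPM of the 46 genes on a log2(CPM + 1) scale (horizontal axis), 1 row per gene, grouped by role. Each point is a library, grey for control and orange for EV, and the vertical ticks are the log2(CPM + 1) of the group means of 3 libraries. Ogdh stands far to the right of all others, and in 13 of the 46 genes, some of them with few counts, every EV point lies left of every control point. Among the 35 genes with a mean count of at least 5 this held in 11 (31.4%), against 21.5% of all genes with such a mean count.

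The stretches of 250 bases before the annotated starts of the 3 genes that passed the threshold with the first filter are shown because the results turn on these genes, and they were searched for motifs known from promoters of nuclear respiratory chain genes (RefSeq, GRCm38.p6, each written 5' to 3' on the gene's strand). Capitals mark the letters of a searched motif, on either strand: the CCAAT box (CCAAT) and the GC box (GGGCGG).
Ndufa4, chr6:11907451-11907700, minus strand: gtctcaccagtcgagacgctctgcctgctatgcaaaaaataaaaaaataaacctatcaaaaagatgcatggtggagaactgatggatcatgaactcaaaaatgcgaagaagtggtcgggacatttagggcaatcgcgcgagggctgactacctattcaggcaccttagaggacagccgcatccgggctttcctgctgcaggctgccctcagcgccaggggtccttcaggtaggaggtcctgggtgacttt
Mdh2, chr5:135778399-135778648, plus strand: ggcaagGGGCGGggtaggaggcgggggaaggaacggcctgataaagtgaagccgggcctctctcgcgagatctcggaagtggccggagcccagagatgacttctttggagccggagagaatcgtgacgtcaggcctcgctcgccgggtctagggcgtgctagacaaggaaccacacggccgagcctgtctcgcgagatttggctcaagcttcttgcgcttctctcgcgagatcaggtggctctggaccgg
Atp5b, chr10:128083057-128083306, plus strand: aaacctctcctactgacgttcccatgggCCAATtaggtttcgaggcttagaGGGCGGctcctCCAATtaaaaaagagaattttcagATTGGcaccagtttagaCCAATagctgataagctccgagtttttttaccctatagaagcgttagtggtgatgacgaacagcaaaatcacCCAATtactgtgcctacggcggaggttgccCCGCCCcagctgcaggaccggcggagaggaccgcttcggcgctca
The Atp5b stretch held CCAAT boxes and GC boxes, the Mdh2 stretch held a GC box, and the Ndufa4 stretch held none of the motifs searched. A window was found for 35 of the 46 genes. Among them, 16 (45.7%) held a CCAAT box, against 37.5% of 27025 genes with such a window, and 20 (57.1%) held a GC box, against 35.4%. The nuclear respiratory factor motif GCGCATGCG was present in 3 (8.57%), against 1.64%, in front of Cox6a1, Cycs and Ogdh, and the ETS motif CCGGAAG in 7 (20.0%), against 7.83%. The YY1 motif ATGGCGGC and the estrogen-related receptor motif TCAAGGTCA were in none, with shares of 1.19% and 0.422% in all windows. A match of letters is a description of the window, not a site that was shown to be bound.

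Among the TCA cycle enzymes, Mdh2 fell. It encodes the mitochondrial malate dehydrogenase, which regenerates oxaloacetate (Entrez 17448, chromosome 5, 135778649 to 135790386 of GRCm38). Its counts were 18, 17 and 18 in control libraries 1, 2 and 3, then 3, 10 and 8 in EV libraries 1, 2 and 4. The level was 29.7 ± 3.10 CPM in the control group and 13.1 ± 5.96 in the EV group (SD, n = 3). All EV libraries were below all control libraries, and EV library 1 was the lowest. The log2 fold change was -1.12 (SE 0.37, adjusted p = 0.0234), and -1.06 with the second filter (adjusted p = 0.0374). Removal of 1 library ended the call in 4 of 6 cases, with an adjusted p of 0.0832 without control library 1, 0.0640 without control library 2, 0.148 without EV library 1 and 0.0565 without EV library 4. It also ended with no filter (adjusted p = 0.0749) and among genes without opposite-strand overlap alone (adjusted p = 0.0589).

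Ogdh, the decarboxylating subunit of the oxoglutarate dehydrogenase complex, was the most counted of the 46 genes (Entrez 18293, chromosome 11, 6291597 to 6359094). Its control counts were 217, 227 and 287, and its EV counts 220, 228 and 217. The groups overlapped, with 406 ± 39.9 CPM in the control group and 428 ± 33.2 in the EV group, and the log2 fold change of 0.07 had a 95% interval from -0.16 to 0.30 (adjusted p = 0.685). Its sign depended on the scaling, with a log2 fold change of -0.065 after scaling by total library size alone, and neither passed the threshold. At 74.4 CPM per kb of exon in the control group, Ogdh was also the highest of the 46 per length, ahead of Cycs with 32.0 and Atp5b with 30.8. It held between 22.5% and 31.7% of all counts of the 46 genes in the control libraries and between 31.4% and 40.5% in the EV libraries, so that sums over TCA genes are given here with and without it.

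Of the other TCA and pyruvate dehydrogenase genes, none passed the threshold with the first filter. Dld, the dihydrolipoamide dehydrogenase that several dehydrogenase complexes share, had 24, 27 and 25 control counts and 22, 13 and 14 EV counts. Its groups overlapped after scaling (log2 fold change -0.43, adjusted p = 0.282). Cs, the citrate synthase that opens the cycle, had 14, 15 and 21 control counts and 10, 8 and 8 EV counts, with no overlap (log2 fold change -0.73, SE 0.35, adjusted p = 0.123). Suclg2, a subunit of succinyl-CoA ligase, was at -0.64 (adjusted p = 0.191), also with no overlap. Pdha1, the catalytic alpha subunit of pyruvate dehydrogenase, was the single gene of the 46 with every EV library above every control library after scaling. Its levels were 28.6 ± 5.65 CPM in the control group and 41.6 ± 12.8 in the EV group, with a log2 fold change of 0.54 (95% interval -0.04 to 1.12, adjusted p = 0.170). The gap was narrow, with 33.8 CPM in EV library 1 and 32.5 in control library 2. Without TMM factors, control library 2 lay above EV libraries 1 and 4. The share of all genes with such a separation was not taken.

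The remaining 9 TCA genes did not reach the first filter, and 4 of them, Idh2, Idh3b, Mdh1 and Dlat, reached the second. Mdh1, the cytosolic malate dehydrogenase of the malate-aspartate shuttle, had 9, 13 and 13 control counts and 0, 8 and 4 EV counts. Its log2 fold change of -1.26 passed the threshold neither with the second filter (SE 0.49, adjusted p = 0.0635) nor with no filter (adjusted p = 0.103). Idh3g, a regulatory subunit of the NAD-dependent isocitrate dehydrogenase and named after its values were seen, had 7, 13 and 4 control counts and 1, 1 and 0 EV counts. The 2 EV counts against 24 control counts gave a ratio of 0.0976 after scaling, with an exact binomial 95% interval of 0.0112 to 0.393 that covers counting error only. Such ratios were taken only for genes with at most 3 counts in every EV library and a minimum of control counts. That choice favours low ratios, so the interval is no test of a change. The fit with no filter, which does not look at the groups, did call Idh3g lower (log2 fold change -3.10, edgeR adjusted p = 0.0040). Its mean count of 4.33 was too low for the second filter. The catalytic subunit Idh3a had 3, 9 and 3 against 0, 3 and 4 counts, which overlapped, and it did not pass with no filter (adjusted p = 0.583).

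Complex I, the NADH dehydrogenase, had 6 of the 46 genes and no call with either filter, with 1 gene at an unadjusted p under 0.05 in the second. Ndufs1, the largest iron-sulfur subunit, was the one tested with the first filter. It had 18, 21 and 17 control counts and 15, 27 and 15 EV counts, which overlapped (log2 fold change 0.22, 95% interval -0.36 to 0.80, adjusted p = 0.607). Ndufs3, another core subunit, had 6, 9 and 8 control counts and 6, 5 and 10 EV counts. With the second filter the log2 fold changes of 5 complex I genes ran from -1.12 for Ndufb9, an accessory subunit, to 0.29 for Ndufs1. In complex II, succinate dehydrogenase, which is also an enzyme of the TCA cycle, Sdha had 18, 28 and 19 control counts and 12, 12 and 18 EV counts. This flavoprotein subunit was at -0.42 (adjusted p = 0.314), with overlapping groups. Sdhd, a membrane anchor, had 6, 6 and 7 against 5, 8 and 3 counts. The other anchor, Sdhc, had 9 control counts in all and 1 EV count, a ratio of 0.13 with an exact 95% interval of 0.00297 to 0.939. For Sdhb the ratio was 0.532, with an interval of 0.145 to 1.66. As with Idh3g, ratios were taken only for genes with low EV counts, so these intervals are no test of a change.

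No complex III gene reached the first filter. Uqcrb, the ubiquinone-binding subunit, had 9, 19 and 7 control counts and 5, 15 and 6 EV counts. The core subunit Uqcrc2 had 6, 5 and 11 against 4, 12 and 3. Both overlapped, and the other core subunit, Uqcrc1, did not, with 9, 9 and 8 control counts and 1, 3 and 6 EV counts (log2 fold change -1.09 with the second filter, adjusted p = 0.141). Cycs, the cytochrome c that carries electrons from complex III to complex IV, was among the more deeply counted genes, with 67, 79 and 48 control counts and 49, 59 and 46 EV counts. Its groups overlapped at 109 ± 29.6 and 98.6 ± 8.97 CPM, and the 95% interval of the log2 fold change of -0.14 reached from -0.51 to 0.24 (adjusted p = 0.631). The mouse genome holds near-identical processed copies of Cycs, and how reads that match several places were counted is not given, so that its value is uncertain to that extent.

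The largest decrease among the genes tested with the first filter was that of Ndufa4, a small subunit first assigned to complex I and now placed in complex IV, cytochrome c oxidase (Entrez 17992, chromosome 6, 11900372 to 11907450). Its control counts were 20, 19 and 17, and its EV counts 2, 4 and 6. The level was 31.5 ± 5.21 CPM in the control group and 7.59 ± 3.67 in the EV group. The groups were far from overlapping, and no single library set the difference. The log2 fold change was -1.99 (SE 0.41, 95% interval -2.82 to -1.16, adjusted p = 0.000409), and with the second filter, which is blind to the groups, it was -1.93 (adjusted p = 0.00062). With no filter the adjusted p was 0.000705. With single libraries left out it was between 0.000934 and 0.00647, but those fits keep a filter that Ndufa4 passes through the control libraries. DESeq2's Wald test gave it no adjusted p.

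The other 6 complex IV genes among the 46 did not pass. Cox5b had 14, 14 and 13 control counts and 5, 11 and 9 EV counts, with every EV library below every control library (log2 fold change -0.51, adjusted p = 0.324). The same separation was seen in Cox6a1, with 9, 9 and 7 against 2, 4 and 5 counts. Cox4i1 and Cox5a overlapped, and their log2 fold changes with the second filter were -0.05 (95% interval -0.95 to 0.86) and 0.52 (-0.58 to 1.62). Of 13 tissue-restricted isoforms of these subunits and of the carriers, uncoupling proteins included, 7 were at 0 in every library and 11 had at most 3 counts.

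In complex V, Atp5b fell. It encodes the catalytic beta subunit of the ATP synthase (Entrez 11947, chromosome 10, 128083307 to 128090388). It had 59, 95 and 82 control counts and 27, 58 and 59 EV counts. With 131 ± 22.9 CPM in the control group and 90.8 ± 29.7 in the EV group, the groups overlapped after scaling, and EV library 1 was by far the lowest. The log2 fold change was -0.51 (SE 0.19, 95% interval -0.89 to -0.13, adjusted p = 0.044). The call was close to the threshold: it was lost with the second filter (adjusted p = 0.0853), and without control library 2 (0.243), control library 3 (0.0642), EV library 1 (0.364) or EV library 2 (0.0580). It was lost as well with DESeq2's size factors (0.0517), its Wald test (0.185), no filter (0.167) and genes without opposite-strand overlap alone (0.216).

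Atp5a1, the alpha subunit, did not pass, with 36, 41 and 36 control counts and 19, 24 and 25 EV counts. Its EV libraries all lay below the control libraries (log2 fold change -0.53, SE 0.24, adjusted p = 0.0961). Atp5c1, the gamma subunit that turns inside the alpha and beta ring, was named after its values were seen (Entrez 11949, chromosome 2, 10056030 to 10080510). It had 13, 15 and 10 control counts and 4, 1 and 4 EV counts, did not reach the first filter, and fell with the second (log2 fold change -1.77, SE 0.50, adjusted p = 0.00876). The point estimates of these 3 subunits, which are not all of the F1 head, were thus all below 0. Their intervals with the second filter overlapped, at -2.77 to -0.78 for Atp5c1 against -0.82 to -0.07 for Atp5b.

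**Figure D2:**
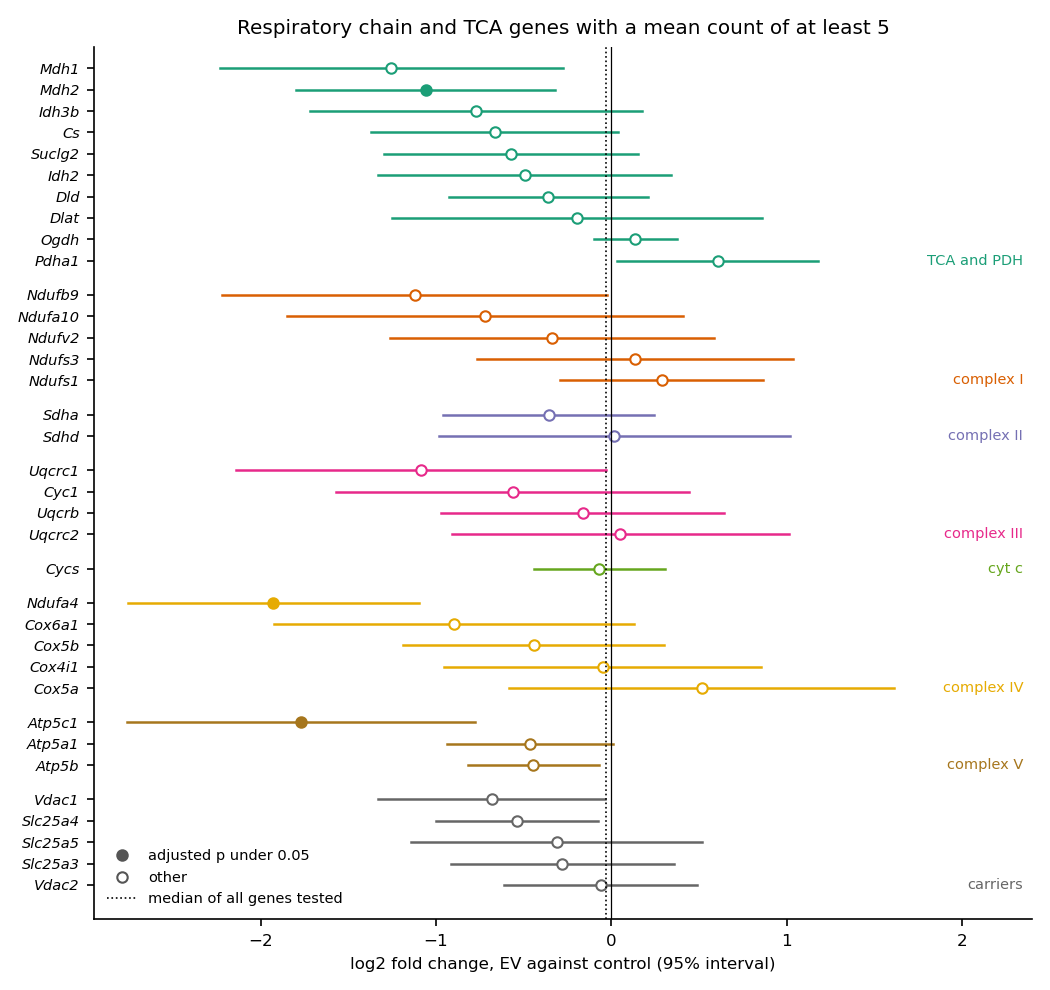
Log2 fold change of EV against control (horizontal axis) with 95% interval for the 35 genes with a mean count of at least 5, by role. Filled points have an adjusted p under 0.05 and the dotted line is the median of all 7203 genes tested. Of the 35 points, 28 lie left of 0, and the 3 filled ones are Mdh2, Ndufa4 and Atp5c1. The signs of points near 0, such as that of Ogdh, depended on the scaling.

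None of the 5 carriers and channels passed the threshold, and 2 of the 4 tested with the first filter had an unadjusted p under 0.05. Slc25a4, an ADP/ATP carrier, had 43, 45 and 36 control counts and 22, 28 and 21 EV counts. Its EV libraries were all below the control libraries, and the log2 fold change of -0.60 came close (SE 0.23, adjusted p = 0.0533). It passed with total library size (adjusted p = 0.0208), with at least 10 counts in every library (0.0350) and without control library 3 (0.0245). Vdac2 had 17, 35 and 21 control counts and 19, 23 and 16 EV counts and overlapped (log2 fold change -0.13, 95% interval -0.69 to 0.43, adjusted p = 0.773). Vdac1 was at -0.75 (adjusted p = 0.0903, and 0.0455 without EV library 2) and the phosphate carrier Slc25a3 at -0.35 (adjusted p = 0.464), whose control library 1, with 34 counts, stood above the 18 and 12 of the other two. Slc25a5, another ADP/ATP carrier, was tested with the second filter alone, at -0.31.

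The TCA enzymes and the subunits of complexes I to V were then set side by side. With the second filter, 8 of 10 TCA and pyruvate dehydrogenase genes were lower, with a median log2 fold change of -0.53, and 14 of 19 complex subunits were lower, with a median of -0.44. The threshold was passed by 1 of these 10 TCA genes and 2 of these 19 complex subunits. Both shares were near the 9.62% of all genes called lower in that fit, so neither number of calls stood out from the background. With the first filter the medians were -0.53 over 6 genes and -0.51 over 6, but 3 of those 6 TCA genes and 2 of the 6 complex subunits had reached that filter in at most 1 EV library, so these values are given as a description alone. Over the genes of the first filter, the SD between libraries of a group was 0.232 for the TCA median and 0.233 for that of the complexes. Which of the medians was lower depended on the processing, with -0.013 over 3 TCA genes and -0.55 over 4 subunits that had at least 10 counts in every library, and -0.55 and -0.31 without EV library 1. No ordering of TCA enzymes and complexes was therefore read from these medians.

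Summed levels were lower as well. All 46 genes together had 1505, 1637 and 1414 CPM in the control group and 1148, 1279 and 1220 CPM in the EV group, 20.0% lower on average. Without Ogdh the sums were 1104, 1268 and 965.3 CPM against 682.6, 877.3 and 803.5, which is 29.2% lower, and the groups did not overlap in either sum. The TCA genes summed to 674 ± 28.4 CPM in the control group and 604 ± 13.6 in the EV group with Ogdh, and to 268 ± 31.5 and 176 ± 19.6 without it, 10.4% and 34.3% lower. The complexes summed to 535 ± 70.2 and 368 ± 70.3 CPM, 31.2% lower. Thus the TCA sum was less reduced than that of the complexes only while it held Ogdh, which alone made up more than all its other genes.

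By complex, the summed level was lower by 38.6% in complex IV, by 34.8% in complex V, by 31.1% in complex III, by 28.7% in complex II and by 16.3% in complex I, and the carriers and channels were lower by 27.6%. The EV and control libraries did not overlap in the sums of complexes II, IV and V. They overlapped in complex I, where EV library 2 had 96.9 CPM and control library 3 had 76.5, in complex III, with 66.9 against 49.98 in the same libraries, and in the carriers. With 3 libraries against 3, no exact permutation test of a sum can go below 0.10, and none was made.

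**Figure D3:**
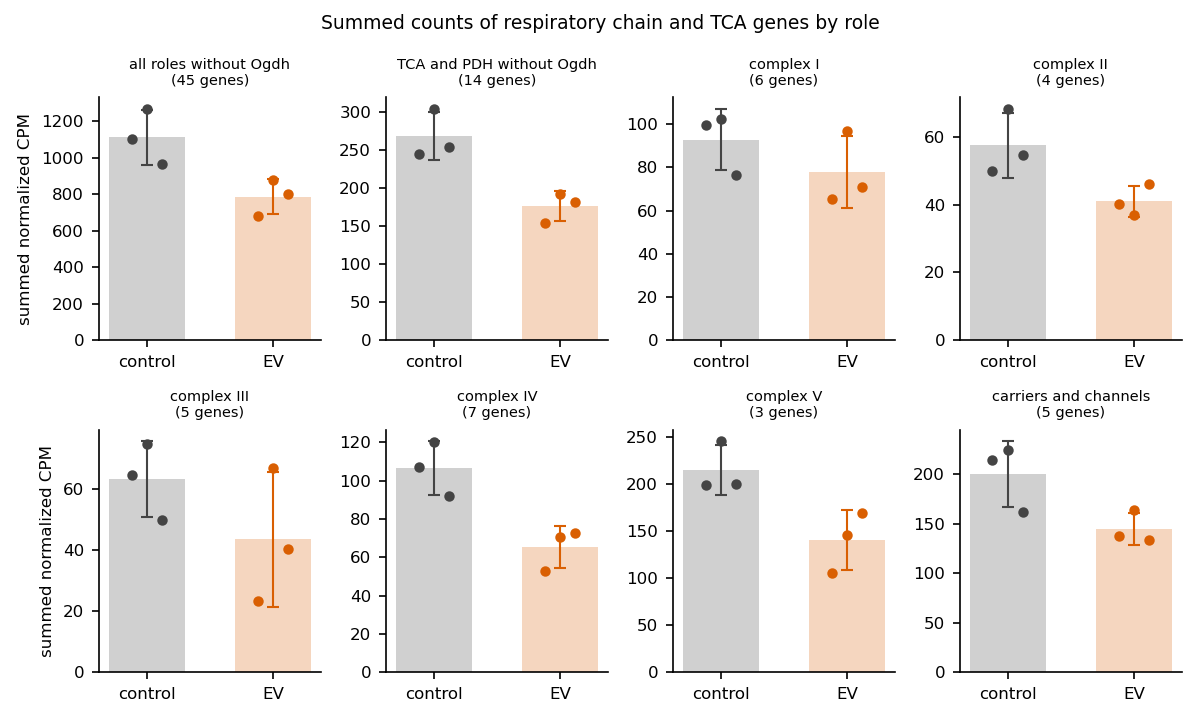
Summed normalized CPM (vertical axis, from 0, a scale of its own in each panel) of the genes of each role in the control (grey) and EV (orange) libraries. Bars are means, error bars are SD over 3 libraries and points are libraries. The first panel holds 45 genes, with Ogdh left out, and the EV points lie below the control points there and in the TCA genes without Ogdh and complexes II, IV and V.

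In the GENCODE vM21 annotation, 12 of the 46 genes share exon bases with a gene transcribed from the other strand, and 34 do not. With the second filter, 22 of 24 genes without such an overlap were lower, with a median log2 fold change of -0.52. Of these, 3 (12.5%) passed the threshold, near the 12.2% of all genes of that class called lower. Of 11 genes with an overlap, 6 were lower, with a median of -0.05, and none passed edgeR's adjusted threshold, with 1 lower and 1 higher at an unadjusted p under 0.05. Over all genes the median was -0.22 over 4081 genes without an overlap and 0.13 over 2688 with one, so that the median of each class lay below that of all genes of its class. The part of the strand in these values was not tested.

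**Figure D4:**
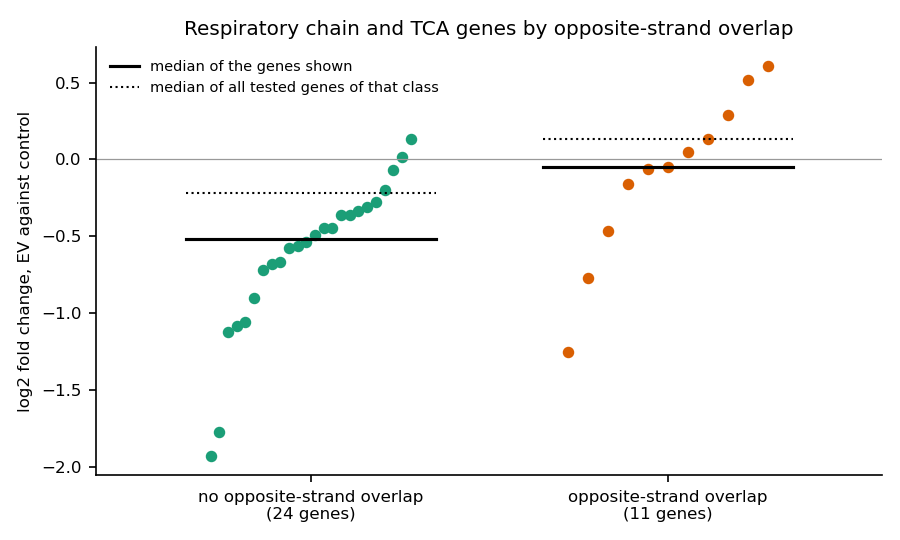
Log2 fold change of EV against control (vertical axis) for the 35 genes with a mean count of at least 5, each point a gene, ordered by value within its class. Solid lines are the medians of the genes shown, -0.52 for 24 genes without an opposite-strand overlap and -0.05 for 11 with one. Dotted lines are the medians of all tested genes of the class, -0.22 and 0.13.

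Pdha1 was chosen as an example after its values were seen. Over 603 bases its exons overlap those of Map3k15, a kinase gene that had 1854, 1976 and 2272 control counts and 1840, 2369 and 2234 EV counts, a log2 fold change of 0.28 (SE 0.08, adjusted p = 0.0101). Map3k15 thus had many times the counts of Pdha1, which had between 12 and 32. Uqcrb is overlapped over 50 bases by Gm10767, with 17, 15 and 18 control counts and 22, 29 and 21 EV counts, and Uqcrc2 over 504 bases by Pdzd9, with 39 to 60 counts in any library. Idh3b shares 5 bases with Nop56, which fell (log2 fold change -0.73, adjusted p = 0.0217). Ndufa4, Mdh2, Atp5b and Atp5c1 have no such overlap.

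The other genes of the pathway were counted from lists of subunits, enzymes and factors. Of 30 other complex I subunits, 13 had a mean count of at least 5, 9 of these were lower, and none passed edgeR's threshold while 3 had an unadjusted p under 0.05, with a median log2 fold change of -0.69. The first filter kept 5 of them, with 2 lower and a median of 0.25, so that the sign of the median turned with the filter. The lowest adjusted p there was that of Ndufv3, at 0.0665 (log2 fold change -0.82). Of 22 other subunits of complexes III, IV and V, 17 were tested with the second filter, 13 were lower, and 4 (23.5%) fell, against 9.62% of all genes. Atp5h, a stator subunit of the ATP synthase, had 19, 22 and 17 control counts and 9, 6 and 9 EV counts (log2 fold change -1.06, adjusted p = 0.0233 with the first filter). Atp5o, Cox7b and Cox7a2l fell with the second filter and were not tested with the first. The median of this list, -0.82 with the second filter, was close to 0 over the 7 genes that the first filter kept. Of 18 other genes of pyruvate, TCA and anaplerotic metabolism, 8 were tested with the second filter and 6 were lower, with a median of -0.58. Got2, the mitochondrial aspartate aminotransferase, passed with the first filter (19, 19 and 19 against 5, 8 and 12 counts, log2 fold change -0.98, adjusted p = 0.0358). It did not pass with the second filter (adjusted p = 0.0573). Both Atp5h and Got2 reached the level of the first filter in fewer EV than control libraries.

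Of the genes that build or regulate the respiratory chain, those with a mean count of at least 5 mostly had point estimates above 0. The others of the 31 assembly factors and 16 regulators in the count table had lower counts, and no direction was read from them. Of 12 assembly factors with a mean count of at least 5, 2 were lower and 10 higher, with a median log2 fold change of 0.36, and 2 (16.7%) rose, Ttc19 and Atpaf2, against 7.64% of all genes in that fit. Ttc19, a factor of complex III, had 185, 242 and 252 control counts and 241, 278 and 237 EV counts (with the first filter, log2 fold change 0.36, SE 0.11, adjusted p = 0.0163). Of 10 biogenesis regulators, 2 were lower, with a median of 0.31, and 2 (20.0%) rose, against the same 7.64%. An opposite-strand overlap is present in 6 of these 10. Of all 2688 genes with such an overlap in that fit, 359 were called higher. Esrra, a nuclear receptor that activates genes of oxidative metabolism, had 214, 259 and 281 control counts and 258, 340 and 310 EV counts. With the first filter its log2 fold change was 0.47 (SE 0.11, adjusted p = 0.00117). Gabpa, an ETS factor of many respiratory chain promoters, had a log2 fold change of 0.41 with that filter (adjusted p = 0.0408). With scaling by total library size alone, Esrra passed at 0.33 (adjusted p = 0.0127), and Ttc19 and Gabpa did not (adjusted p = 0.130 and 0.206). These 3 are overlapped on the opposite strand, Ttc19 by Ncor1, Esrra by Trmt112 and Gabpa by Atp5j, a subunit gene of complex V. Atpaf2 has no such overlap, and it did not pass with the first filter (adjusted p = 0.0709) or with total library size (adjusted p = 0.341).

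In the list of mitochondrial import, folding and dynamics, 10 of 13 genes were lower with the second filter, with a median log2 fold change of -0.52, and 3 (23.1%) fell, against 9.62% of all genes. Hspa9 is the chaperone that pulls proteins into the matrix. It had 160, 212 and 157 control counts and 71, 134 and 101 EV counts, with no overlap. The log2 fold change of Hspa9 was -0.60 with the first filter (SE 0.15, adjusted p = 0.0025). With the second it was -0.53 (adjusted p = 0.0065). Phb2, a prohibitin of the inner membrane, had 21, 28 and 18 control counts and 6, 9 and 5 EV counts. No EV library of Phb2 reached the level of the first filter, so Phb2 entered through its control counts alone. It was at -1.53 there (adjusted p = 0.00146) and at -1.46 with the second filter (adjusted p = 0.00232). None of the 13 subunits that the mitochondrial genome encodes was matched to a row of the count table, so they were not analysed here.

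**Figure D5:**
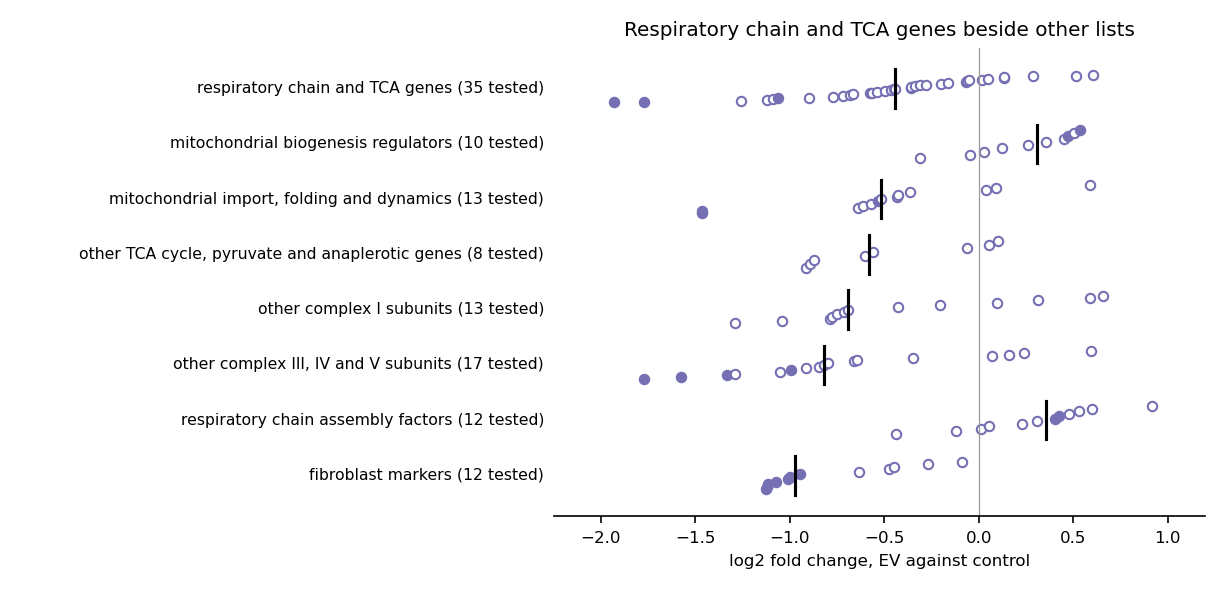
Log2 fold change of EV against control (horizontal axis) of genes with a mean count of at least 5 in the 35 respiratory chain and TCA genes and in 7 other lists, each point a gene. Filled points have an adjusted p under 0.05 and vertical bars are medians. The medians of subunits, enzymes and import genes lie between -0.82 and -0.44, those of assembly factors and regulators at 0.36 and 0.31, and that of the fibroblast markers at -0.97. Some points near 0 changed sign with the scaling.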

How the data were processed

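RNA-seq libraries of 3T3-L1 cells treated with MLP29-derived EVs (3) or a control preparation (3) were analysed, and groups and replicate numbers came from the labels. The authors checked reads with FASTQC, mapped them to mm10 (GRCm38) by STAR and built a table of raw counts per Entrez gene by Rsubread, which they deposited without normalization. Versions, annotation release, strand setting and treatment of reads matching several places are not given in the sources used here. Of the identifiers, 99.8% had a RefSeq symbol and 88.7% matched GENCODE vM21.

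Counts were tested in R 4.3.3 by the quasi-likelihood functions of edgeR 4.0.16 after filterByExpr and TMM, with no covariates and with Benjamini-Hochberg adjustment over all genes tested and a threshold of 0.05. The biological coefficient of variation was 0.0779. Standard errors are the log2 fold change over the square root of F, and intervals are 95%. A gene with at most 3 counts in every library was given no fold change. Alternatives were DESeq2 1.42.0 (Wald test, size factors), total library size, no filter, at least 10 counts in every library, a mean count of at least 5 (added after the data were seen), a replicate block, genes without opposite-strand overlap, and each library left out. Total library size here means the sum over the genes kept, without TMM factors. The fit was tested on simulated data. Counts of replicates differed by more than sampling noise in every pair, so none was taken as a duplicate. Intervals on counts cover counting error only.

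Named were genes past the threshold, the 2 most counted of each role and up to 4 genes with the lowest adjusted p in each other list. Further genes were named outside these rules, Cs, Suclg2, Mdh1, Uqcrc1, Cox6a1, Cox5a and Vdac1 among them. Their choice may have followed their values. The genes and lists were chosen with earlier results of these data known. Fibroblast, adipocyte, liver progenitor and macrophage markers were checked. Of 8 adipocyte markers, 4 were at 0 in every library and Lpl was the one tested (log2 fold change -0.39, adjusted p = 0.0398 from edgeR, 0.104 with the mean count filter). Reads and proteomics data were not analysed here.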

Additional observations from a re-analysis of the deposited data

How the results depend on the processing

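Of 223 values of single tested genes under the alternatives, 195 kept their direction and side of the threshold, 15 lost it, 5 gained it and 8 reversed, all 8 in genes that did not pass. Most of the 223 belong to genes that did not pass in the main fit. All 15 losses were in Mdh2 and Atp5b. Mdh2 stayed under the threshold in 6 of 12 alternatives, Atp5b in 5 of 14 and Ndufa4 in 12 of 12. Values without an adjusted p from DESeq2 are not among the 223. The number of these genes called lower was 3, with 5 under total library size, 0 with the DESeq2 Wald test (5 of 17 had no adjusted p, and 3 had an unadjusted p under 0.05) and 1 without genes that have an opposite-strand overlap, and 1 to 4 with a library left out, 1 without control library 2. None was called higher by edgeR or DESeq2. Over all genes, 1107 passed, with 539 by the DESeq2 Wald test, 615 with at least 10 counts in every library, 543 without opposite-strand overlap and 455 to 1154 with a library left out, 455 without control library 2 and 698 without control library 1. The split was 723 lower and 384 higher, 962 and 89 with total library size, which shifted the median of all genes by -0.137, 473 and 142 with at least 10 counts, and 294 and 245 with the Wald test. The median log2 fold change of the tested genes was -0.51, with -0.65 under total library size, -0.66 with the replicate block, -0.32 without opposite-strand overlap and -0.62 to -0.35 with a library left out. That of the TCA enzymes was -0.53, with -0.013 where a minimum of 10 counts per library left 3 genes, 1 of which was Ogdh, and -0.75 to -0.51 with a library left out, and that of the complexes was -0.51, with -0.61 to -0.31 with a library left out, -0.71 with the replicate block and -0.65 with total library size. Reversed were Ogdh (-0.065 with total library size, -0.013 with at least 10 counts, and -0.028 without control library 2 in a range up to 0.14), Cycs (0.055 without opposite-strand overlap), Slc25a3 (0.21 without control library 1, in a range from -0.71), Vdac2 (0.17 without control library 2 and 0.034 without EV library 4, in a range from -0.30) and Ndufs1 (-0.021 without EV library 2, in a range up to 0.41). The cause was not tested. Only numbers 1 and 2 occur in both groups, and the labels do not say that they pair libraries. Same-numbered libraries deviated together with correlations of 0.0714 and 0.0634, and the replicate block called 3 of these genes and 1115 of all. At these depths, folds of genes under about 20 counts carry wide intervals.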
